A study of Arabidopsis thaliana with 8 samples.

Results

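The early steps of tetrapyrrole synthesis and the heme branch were followed through 9 nuclear genes in ribosome footprint counts on coding sequences. The genes were chosen by name and identifier for their place in the pathway, with earlier results of these data known. All 9 were found among the 27416 genes of the table. They are HEMA1 (AT1G58290) and HEMA2 (AT1G09940), GSA1 (AT5G63570) and GSA2 (AT3G48730), HEMB1 (AT1G69740), GUN4 (AT3G59400), FC1 (AT5G26030) and FC2 (AT2G30390), and HO1 (AT2G26670). Compared with shoot, root had lower footprint levels of 7 of the 9, a higher level of 1 (FC1), and for 1 (HEMA2) the difference did not pass the test. Among all genes tested, 22.6% were called lower and 17.8% higher in root.

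Ribosome footprints are the short mRNA pieces that a translating ribosome protects from nuclease. They came from roots and shoots of Arabidopsis thaliana Col seedlings, wild type by the labels, aged 4 days and taken 3 h after lights on from liquid culture with sucrose. Each tissue was lysed in 4 buffers, with 1 library for each tissue and buffer and thus 8 in all. In 200 mM Tris, KCl was 50 mM in buffer A, 40 mM in B and 30 mM in C, and MgCl2 was 25, 20 and 15 mM in the same order. Buffer D had the KCl and MgCl2 of buffer B in 100 mM Tris. Detergents, deoxycholic acid, DTT, cycloheximide (which stalls ribosomes) and DNase I were common to all buffers. The 4 buffers stood in as repeats of a tissue. The labels do not say that the libraries came from separate cultures, so p-values measure only the spread between these libraries.

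Plants make tetrapyrroles in plastids, from glutamate that is bound to its tRNA. Glutamyl-tRNA reductase, encoded by the HEMA genes, and glutamate-1-semialdehyde aminomutase, encoded by the GSA genes, make 5-aminolevulinate, and 5-aminolevulinate dehydratase, encoded by HEMB1, condenses it to porphobilinogen. At protoporphyrin IX the pathway forks: magnesium chelatase leads to chlorophyll, with GUN4 as a porphyrin-binding activator, and ferrochelatase, encoded by FC1 and FC2, inserts iron to give heme. Heme oxygenase, of which HO1 is the main plastid form, opens heme on the way to the phytochrome chromophore. In green tissue the pathway is known chiefly for chlorophyll, whereas in roots heme is the main product.

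Totals ran from 1120218 counts (root D) to 3410266 (root A) in root and from 3746348 to 4501213 in shoot. Levels are given in CPM, counts brought to a common library size with TMM factors, which set the bulk of genes level between libraries. A single count was worth 0.253 CPM in root A, 0.736 CPM in root D and 0.265 to 0.317 CPM in shoot, so at a given level root B, C and D rest on fewer reads than the shoot libraries and root A does not. The tissue labels were checked against marker genes: all 6 root markers were higher in root, and all 6 shoot markers were lower in root. The markers were chosen with earlier results of these data known, so this check is not independent of the data. The shoot markers summed to 215 to 296 CPM in root libraries and to 35928 to 41021 CPM in shoot libraries, so the mean root level was 0.676% of the shoot mean, and FIL, a leaf polarity factor, had no count in root. The part of any shoot material in the root values of the pathway genes was not tested. In whole organs, fewer cells that express a gene and less RNA per cell cannot be told apart, and a footprint count combines mRNA level and translation.

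The comparison of root with shoot was made with edgeR's quasi-likelihood test on all 15664 genes that passed the low-count filter, and calls are at a Benjamini-Hochberg adjusted p under 0.05. All 9 pathway genes passed that filter. Over all genes tested, 22.6% were called lower in root and 17.8% higher in root. Of the 9 genes, 7 had every root library below every shoot library, and 1 had every root library above. Over all genes tested these shares were 25.3% and 19.8%. The median log2 fold change, root minus shoot, was -3.03 over the 9 genes and -0.12 over all genes tested. The counts of 7 lower and 1 higher were the same with library totals in place of TMM factors, whereas over all genes tested the calls moved from 3534 to 2687 lower and from 2781 to 4767 higher in root.

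**Figure D1:**
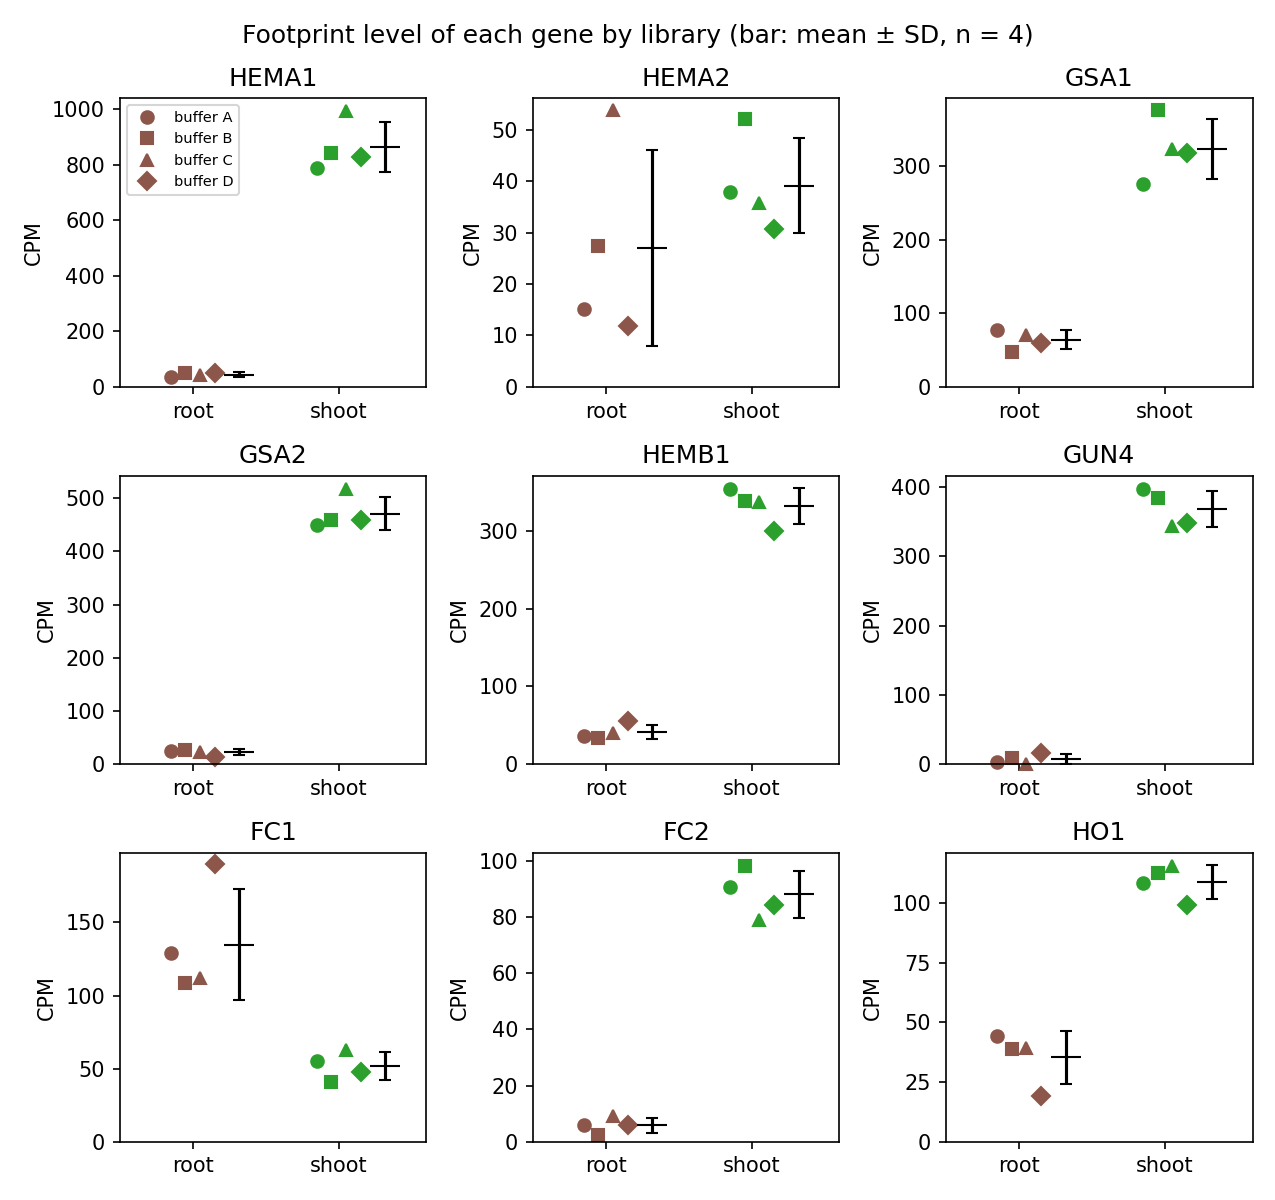
Footprint level in CPM (vertical axis, linear, from 0) of each of the 9 genes in the 4 root and 4 shoot libraries, with 1 symbol per buffer and a bar for the mean ± SD (n = 4). FC1 is the gene whose root points all lie above its shoot points, HEMA2 is the one whose ranges overlap, and the other 7 lie lower in root.

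HEMA1, the glutamyl-tRNA reductase known as the main form of green tissue, had 35.4, 51.2, 42.0 and 50.1 CPM in root libraries A, B, C and D. In shoot it had 788, 843, 992 and 827 CPM in the same order. The groups lay far apart, and every root value was below every shoot value. The root mean of 44.6 ± 7.42 CPM was 19.3-fold below the shoot mean of 862 ± 89.1 CPM (SD, n = 4 each, log2 fold change -4.29 ± 0.14 SE, edgeR adjusted p = 3.7e-09).

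HEMA2, the second glutamyl-tRNA reductase, known to be expressed also outside green tissue, gave another picture. Its root levels were 15.2, 27.4, 53.9 and 11.8 CPM in buffers A to D, and its shoot levels 37.9, 52.1, 35.7 and 30.8 CPM. Root C was the highest of all 8 libraries and the other root libraries were the lowest 3, so the ranges overlapped. The means of 27.1 ± 19.1 and 39.1 ± 9.17 CPM did not differ beyond their spread (log2 fold change -0.73 ± 0.36 SE, edgeR adjusted p = 0.139). That result rests on buffer C: without root C the log2 fold change was -1.21 (adjusted p = 0.0199), and without shoot C, which is nearly the same check, it was -1.22 (adjusted p = 0.0149).

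Both aminomutase genes were lower in root, by different amounts. GSA1 had 78.1, 48.1, 71.0 and 59.6 CPM in root A to D and 276, 377, 323 and 318 CPM in shoot A to D. GSA2 had 26.0, 26.4, 23.4 and 14.7 CPM in root and 450, 458, 517 and 460 CPM in shoot. For neither gene did the tissues overlap. GSA1 kept 19.8% of its shoot mean in root (log2 fold change -2.33 ± 0.19 SE, adjusted p = 3.0e-06), whereas GSA2 kept 4.80% (-4.36 ± 0.17 SE, adjusted p = 1.4e-08). Reads that match both copies of a duplicated enzyme may be counted at either, and how the authors treated them is not given in the sources used here, so values of single copies are uncertain to that extent.

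HEMB1, the dehydratase that makes porphobilinogen, stood between the aminomutase genes in fold change. It had 36.9, 33.6, 40.5 and 55.2 CPM in root A to D and 353, 338, 336 and 299 CPM in shoot. The ranges were far apart, although buffer D held the highest root value and the lowest shoot value. HEMB1 was 7.98-fold lower in root (log2 fold change -3.03 ± 0.18 SE, adjusted p = 2.5e-07).

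GUN4, which binds porphyrins and activates magnesium chelatase, differed most between the tissues among the 9 genes. Its counts in root were 14, 19, 0 and 22 in buffers A to D, or 3.54, 9.82, 0 and 16.2 CPM, and its shoot levels were 397, 385, 344 and 349 CPM. The shoot libraries lay close together, while root C had no count at all, which allows a level of up to 1.43 CPM there (3 counts; counting error only). The shoot mean of 369 ± 26.1 CPM was 49.9-fold above the root mean of 7.39 ± 7.14 CPM (log2 fold change -5.92 ± 0.47 SE, adjusted p = 3.0e-06). Without root D, the highest root value, the log2 fold change was -6.53, and without shoot D it was -6.56.

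The ferrochelatase copies were called in opposite directions. FC1, known from the whole plant, had 129, 109, 112 and 190 CPM in root A to D and 55.2, 40.7, 63.0 and 47.9 CPM in shoot. Every root library was above every shoot library, with root D the highest. FC1 was 2.61-fold higher in root (134.9 ± 37.8 against 51.7 ± 9.56 CPM, SD, n = 4 each; log2 fold change 1.36 ± 0.20 SE, adjusted p = 3.1e-04).

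FC2, the ferrochelatase known from photosynthetic tissue, had 24, 5, 19 and 8 counts in root A to D, or 6.06, 2.59, 9.06 and 5.89 CPM. In shoot it had 90.7, 98.0, 79.0 and 84.4 CPM. All root values were low and far under the shoot range. FC2 was 14.9-fold lower in root (log2 fold change -3.91 ± 0.33 SE, adjusted p = 4.7e-06).

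HO1, which degrades heme to biliverdin, had 44.2, 38.8, 39.1 and 19.1 CPM in root A to D and 108, 113, 115 and 98.9 CPM in shoot. Root D was the lowest value, and the ranges did not overlap. HO1 kept 32.5% of its shoot mean in root, more than any of the other 6 genes that were called lower (log2 fold change -1.65 ± 0.21 SE, adjusted p = 1.2e-04).

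Because coding lengths were not used here, levels of different genes are not ranked against each other. The ratio of the copies of an enzyme within a library, however, can be compared between tissues, since length and library scaling cancel in the difference. The ratios were tested for 3 chosen pairs: FC1 to FC2, GSA1 to GSA2 and HEMA1 to HEMA2. A two-sided exact permutation test over the 8 libraries was used, with 0.5 counts added to each gene. P-values were adjusted over the 3 pairs. Other steps of the pathway are duplicated too, and HEMA3 is a further reductase gene. Ratios with the further copies named below, among them HEMA3 and HEMB2, were not tested. For each pair all 4 root ratios lay on one side of all 4 shoot ratios. The exact permutation p of 0.0286 (adjusted p = 0.0286) was the smallest that 4 against 4 can give. Libraries were permuted without regard to buffer, unlike in the edgeR model, which holds a buffer term.

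The log2 ratio of FC1 to FC2 was 4.38, 5.26, 3.59 and 4.93 in root A to D and -0.72, -1.26, -0.33 and -0.81 in shoot. FC1 thus had more footprints than FC2 in every root library and fewer in every shoot library. The mean ratio differed by 5.32 on the log2 scale, or 39.9-fold (4.54 ± 0.73 against -0.78 ± 0.39, SD, n = 4 each, exact permutation test as above). FC1 held 95.7 ± 2.29% of the footprints of the pair in root and 36.9 ± 6.16% in shoot (counts not divided by length).

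The log2 ratio of GSA1 to GSA2 was 1.58, 0.86, 1.59 and 1.99 in root A to D and -0.70, -0.28, -0.68 and -0.53 in shoot. Here too the copy with more footprints changed with the tissue in all buffers, by 2.06 on the log2 scale or 4.16-fold (1.51 ± 0.47 against -0.55 ± 0.19). GSA1 held 73.8 ± 6.57% of the footprints of the pair in root and 40.6 ± 3.24% in shoot.

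The log2 ratio of HEMA1 to HEMA2 was 1.22, 0.90, -0.36 and 2.05 in root A to D and 4.37, 4.01, 4.79 and 4.74 in shoot. HEMA1 had more footprints than HEMA2 in 7 of the 8 libraries, and root C was the exception. The mean ratio was lower in root by 3.53 on the log2 scale, or 11.5-fold (0.95 ± 1.00 against 4.48 ± 0.36). HEMA1 held 65.0 ± 15.6% of the footprints of the pair in root and 95.6 ± 1.09% in shoot.

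**Figure D2:**
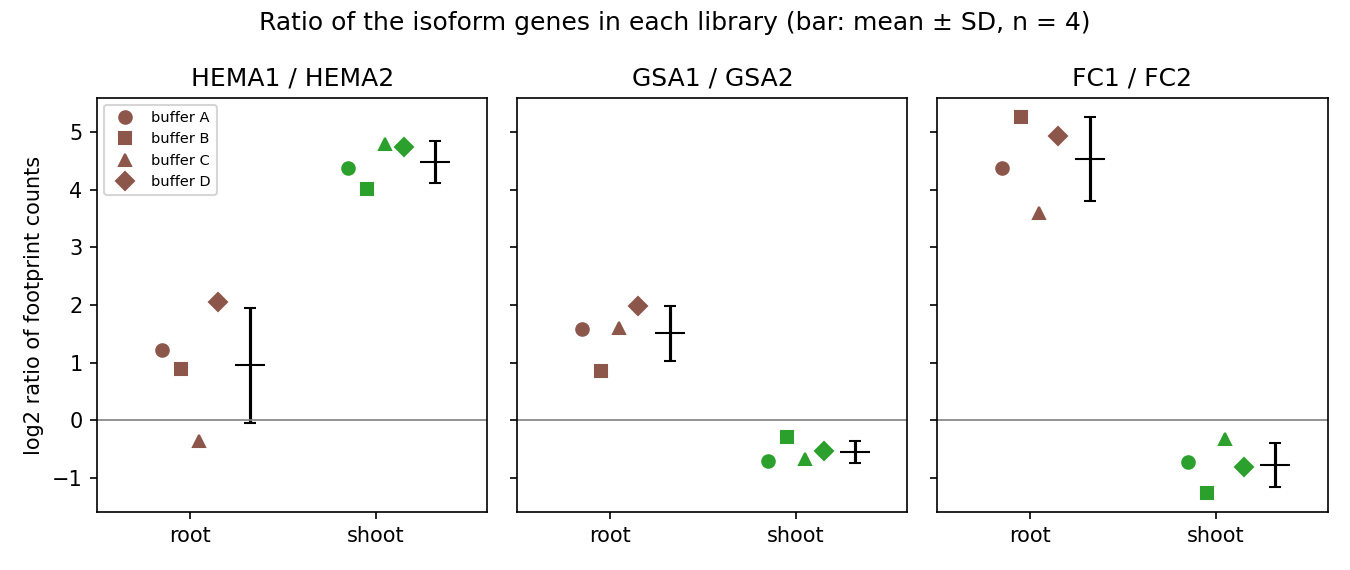
Log2 ratio of the footprint counts of the copies of an enzyme in each library (vertical axis), for HEMA1 to HEMA2, GSA1 to GSA2 and FC1 to FC2, with 1 symbol per buffer and a bar for the mean ± SD (n = 4). Root and shoot do not overlap in any panel, and the FC1 to FC2 ratio differs most, at 4.54 in root and -0.78 in shoot on average.

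The copies of each tested pair were also summed, a measure chosen after the values were seen. Footprints of FC1 and FC2 together were 135, 111, 121 and 196 CPM in root A to D and 146, 139, 142 and 132 CPM in shoot. The ranges overlapped, with a root mean of 141 ± 37.97 CPM and a shoot mean of 139.7 ± 5.78 CPM (two-sided exact permutation test on log2 values, p = 0.943, adjusted over the 3 sums p = 0.943). This comparison depends on the scaling: with library totals alone the mean sums were 168 ± 48.9 CPM for root and 118 ± 4.98 CPM for shoot, and all root libraries lay above all shoot libraries (exact permutation p = 0.0286, the smallest possible).

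The summed HEMA1 and HEMA2 footprints of root, 71.7 ± 19.8 CPM, came to 7.95% of the 902 ± 88.4 CPM of shoot. For the GSA pair the sums were 86.8 ± 14.9 and 795 ± 53.9 CPM, or 10.9% (exact permutation p = 0.0286 and adjusted p = 0.0429 for each pair). These pairs kept their direction and their separation of the tissues with library totals alone.

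**Figure D3:**
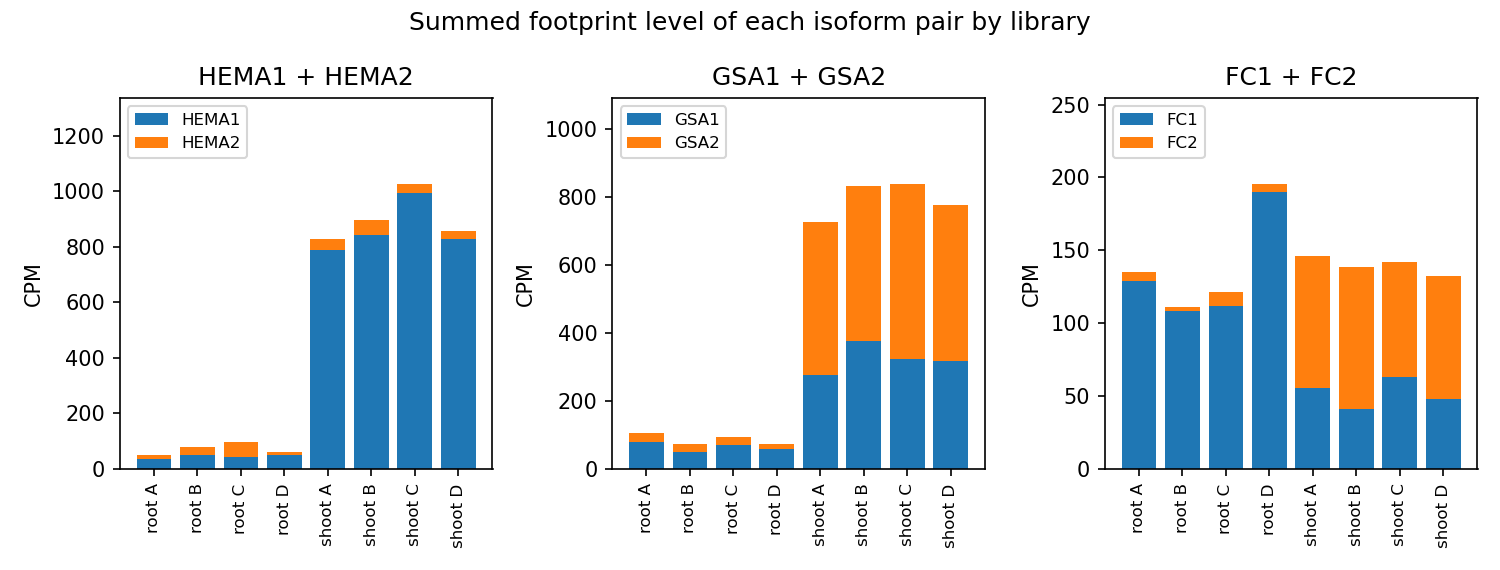
Footprint levels of the copies of an enzyme stacked for each of the 8 libraries (vertical axis in CPM, linear, from 0, not divided by coding length). The HEMA and GSA stacks are low in root, whereas the FC stacks overlap between the tissues at 111 to 196 CPM in root and 132 to 146 CPM in shoot, with FC1 making up most of each root stack.

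The steps between porphobilinogen and protoporphyrin IX were followed with a list of 10 genes, which includes rarely expressed copies of the early enzymes. Of these, 8 passed the low-count filter, 7 were lower in root, 0 were higher, and the median log2 fold change was -3.43. For this list and those below, the shares over all genes tested were 22.6% lower and 17.8% higher in root. HEMC, the porphobilinogen deaminase, had a log2 fold change of -3.78 ± 0.18 SE, from a root mean of 53.8 ± 16.2 CPM and a shoot mean of 731 ± 62.8 CPM. The uroporphyrinogen decarboxylases HEME1 and HEME2 had log2 fold changes of -4.26 ± 0.24 and -4.17 ± 0.33.

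HEMD, the uroporphyrinogen III synthase, had a log2 fold change of -4.49 ± 0.69 on 14 root counts in all, and of -5.08 without root C and -5.17 without shoot C. HEMF1, a coproporphyrinogen oxidase, had a log2 fold change of -3.08 ± 0.22. The last enzyme before the fork, protoporphyrinogen oxidase, was lower by less. PPOX1 had root and shoot means of 48.7 ± 27.7 and 226 ± 17.7 CPM (log2 fold change -2.35 ± 0.25), and PPOX2 had a log2 fold change of -1.41 ± 0.33 (adjusted p = 5.4e-03). Whether these differed from the steps before them was not tested.

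The list also held further copies with few counts. HEMA3, a further glutamyl-tRNA reductase gene, had 35, 10, 8 and 0 counts in root A to D and 17, 4, 20 and 7 in shoot, and its log2 fold change of 0.16 ± 1.07 SE did not pass (adjusted p = 0.925) and turned negative without either library of buffer A or B. HEMB2, a second dehydratase gene, had 33, 6, 0 and 6 counts in root and none in any shoot library. Most of its root counts came from root A, and it missed the low-count filter. With no low-count filter the test called it higher in root (adjusted p = 0.0363 over 21907 genes). HEMF2, a second coproporphyrinogen oxidase gene, had 1 count over the 4 root libraries and 53 over the shoot libraries. It missed the filter as well, and with no filter it was called lower in root (adjusted p = 0.0445).

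Both listed regulators of glutamyl-tRNA reductase were lower in root. FLU, which holds the enzyme back in the dark, had 7.07, 1.55, 26.7 and 10.3 CPM in root A to D and 95.5, 119, 123 and 85.3 CPM in shoot. Its root values spread widely but stayed under the shoot range (log2 fold change -3.45 ± 0.45 SE, adjusted p = 1.1e-04). Without root C its log2 fold change was -4.04, and without shoot C it was -4.06. GBP, a binding protein of the reductase that RefSeq lists as PGR7, had a log2 fold change of -2.63 ± 0.22 SE (adjusted p = 4.5e-06).

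Downstream of heme, 2 of the 4 other genes of heme oxygenase and bilin synthesis passed the filter and both were lower in root. HY2, the phytochromobilin synthase, had 4 counts in root, all in root A, and a shoot mean of 17.2 ± 6.67 CPM (log2 fold change -5.37 ± 0.95 SE, adjusted p = 1.0e-03). Its log2 fold change was -8.74 without root A, -8.77 without shoot A and -4.76 without root C. The former values set shoot against root libraries with no count and depend on the prior count. HO2, a heme oxygenase relative, had a log2 fold change of -2.77 ± 0.89 SE (adjusted p = 0.0293). Its ranges overlapped, and the call was lost with library totals alone, without root A or root C, and without shoot A, shoot C or shoot D (adjusted p 0.0560 to 0.188). Its log2 fold change was -2.17 without root A, -3.49 without root B and -3.51 without shoot B. HO3 and HO4, the other heme oxygenase genes, had 5 and 13 counts in all root libraries together and 13 and 23 in shoot.

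The siroheme and heme A branches gave no calls. Of 4 genes tested, 0 were lower and 0 higher in root by edgeR, 0 passed at an unadjusted p under 0.05, and 0 were called by DESeq2. The median log2 fold change was -0.46. UPM1, the uroporphyrinogen III methyltransferase that opens the branch to siroheme, had 78.3, 76.0, 73.4 and 74.3 CPM in root A to D and 96.6, 104, 81.5 and 98.6 CPM in shoot. All root values were below all shoot values by a small margin (log2 fold change -0.33 ± 0.16 SE, adjusted p = 0.137), and with library totals alone the sign turned, at 0.17.

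SIRB, the sirohydrochlorin ferrochelatase, had a log2 fold change of -1.88 ± 0.98 (edgeR adjusted p = 0.161), and of -1.01 without root A and -1.03 without shoot A. Its root libraries, at 0 to 4.42 CPM and 23 counts in all, also lay below its shoot libraries, at 7.21 to 12.5 CPM. COX10 and COX15, which make heme A for cytochrome oxidase in mitochondria, had values of -0.60 ± 0.29 (adjusted p = 0.134) and -0.021 ± 0.42 (adjusted p = 0.975). COX15 turned to 0.48 with library totals alone and to 0.024 without the buffer term. As sums, the root level of the 4 genes was 76.3% of the shoot level, against 14.5% for the 9 early and heme genes. UPM1 made up most of the former sum, with 75.5 of 119.9 CPM in root and 95.2 of 157.1 CPM in shoot. The latter sum joins genes called in opposite directions: FC1, higher in root, held 134.9 of 383.5 CPM in root and 51.7 of 2645 CPM in shoot. A difference between the lists was not tested.

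On the magnesium branch all 13 listed genes passed the filter and all 13 were lower in root, with a median log2 fold change of -6.38 and a summed root level of 1.64% of that in shoot. The 2 genes of the branch with the most counts were CHLH, a magnesium chelatase subunit, with a log2 fold change of -5.84 ± 0.13, and CHLP, the geranylgeranyl reductase, with one of -5.82 ± 0.14. The 13 values ran from -9.06 for PORA, which had no count in root so that its value depends on the prior count, to -4.32 for CHLD. GUN4 at -5.92 lay within that range, as did HY2 at -5.37, HEMD at -4.495 and GSA2 at -4.36.

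**Figure D4:**
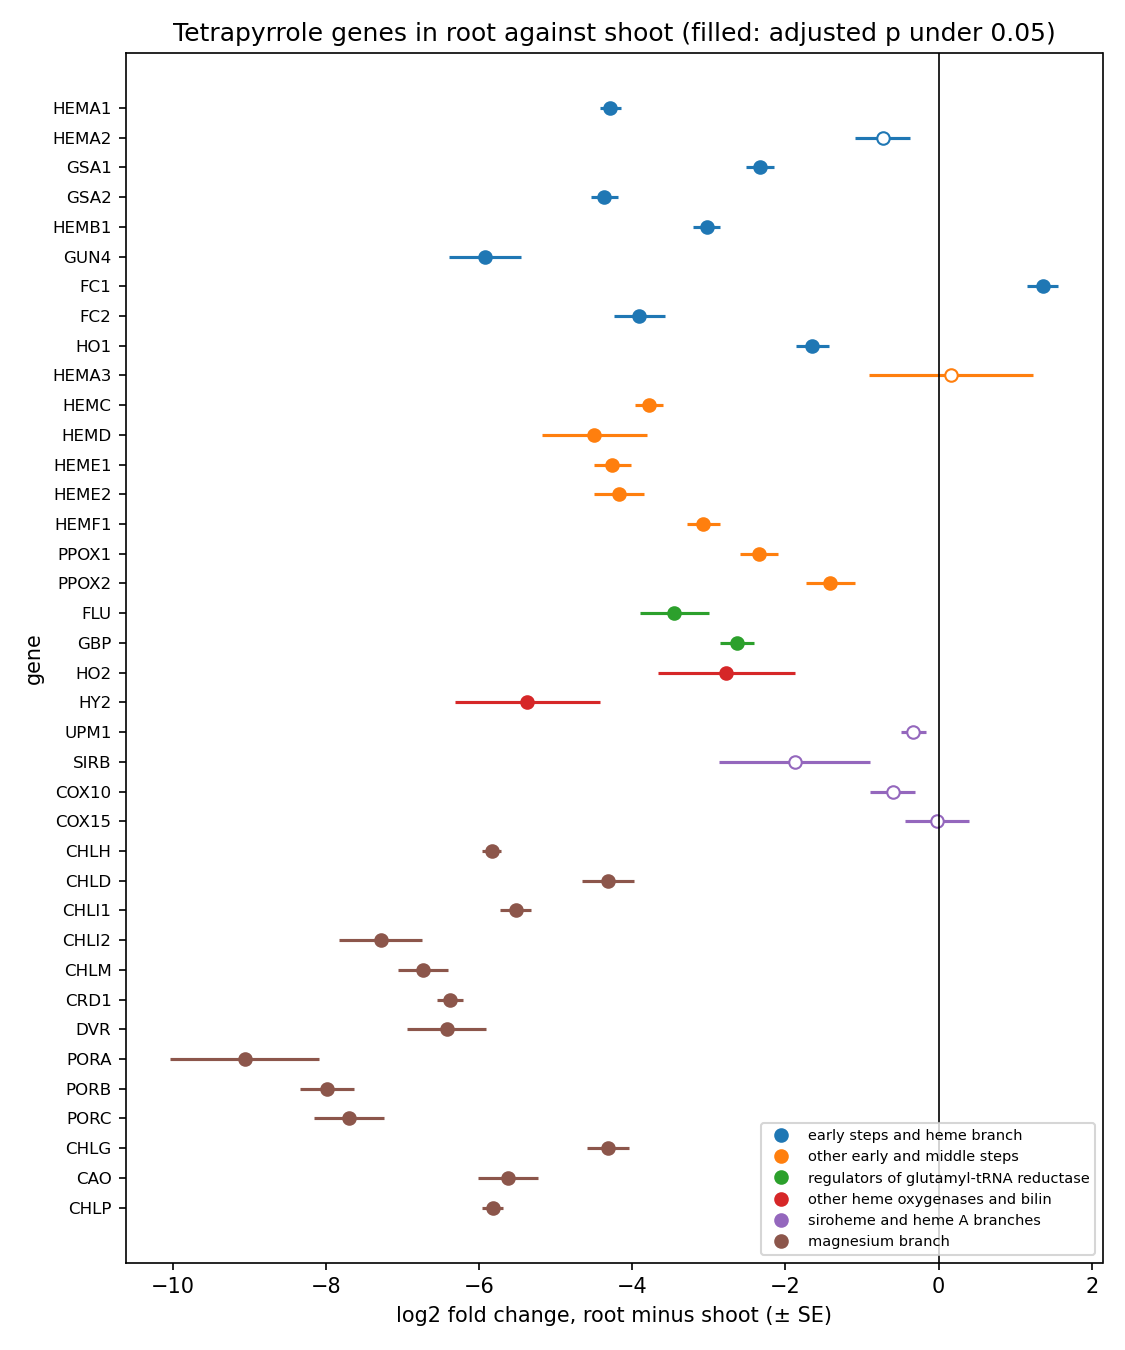
Log2 fold change, root minus shoot, with its standard error (horizontal axis) for the 38 tetrapyrrole genes that passed the low-count filter, coloured by list, filled where the adjusted p is under 0.05. FC1 is the filled point to the right of 0, and the siroheme and heme A genes are open. The point farthest to the left, PORA, is of the magnesium branch, whose range also holds GUN4, HY2, HEMD and GSA2. PORA had no count in root, so its fitted value depends on the prior count and is no measure of size.

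The buffers were compared next, with the tissues as a term. None of the 9 genes was called in any buffer test. The background of these tests was low. Across all genes, edgeR called 0.0575% for any difference among the buffers, 0% for buffer A minus C and 0.0447% for buffer D minus B. Unadjusted p-values under 0.05 numbered 121, 253 and 312 in the same order, with 0 of the 9 genes among them each time. DESeq2 called 0 of the 9 in each test and 0 genes for buffer A minus C. Fitted over both tissues, the largest of the 9 shifts from buffer C to A was that of HEMA2, at -0.95 on the log2 scale (unadjusted p = 0.084 by edgeR, adjusted p = 1). HEMA2 also had the largest fitted difference of buffer D minus B, at -0.91 (unadjusted p = 0.101 by edgeR, adjusted p = 1). For FC1 that difference was 0.55 (unadjusted p = 0.0798 by edgeR, adjusted p = 1).

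Whether the trend with MgCl2, which KCl follows in the same ratio, differed between the tissues was tested as an interaction. It was called for 0% of all genes, and so for 0 of the 9, by edgeR and by DESeq2. Unadjusted p-values under 0.05 numbered 618, of which 1 was from the 9 genes. That gene was HEMA2 (unadjusted p = 0.0348, adjusted p = 1), named here after its values were seen. The log2 difference of HEMA2, buffer A minus C, was -1.82 in root and 0.085 in shoot. For GUN4 the same difference was larger in root, at 3.94, and was 0.20 in shoot. The root value of GUN4 rests on 14 counts in root A and 0 in root C, and its interaction had an unadjusted p of 0.816 by edgeR.

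**Figure D5:**
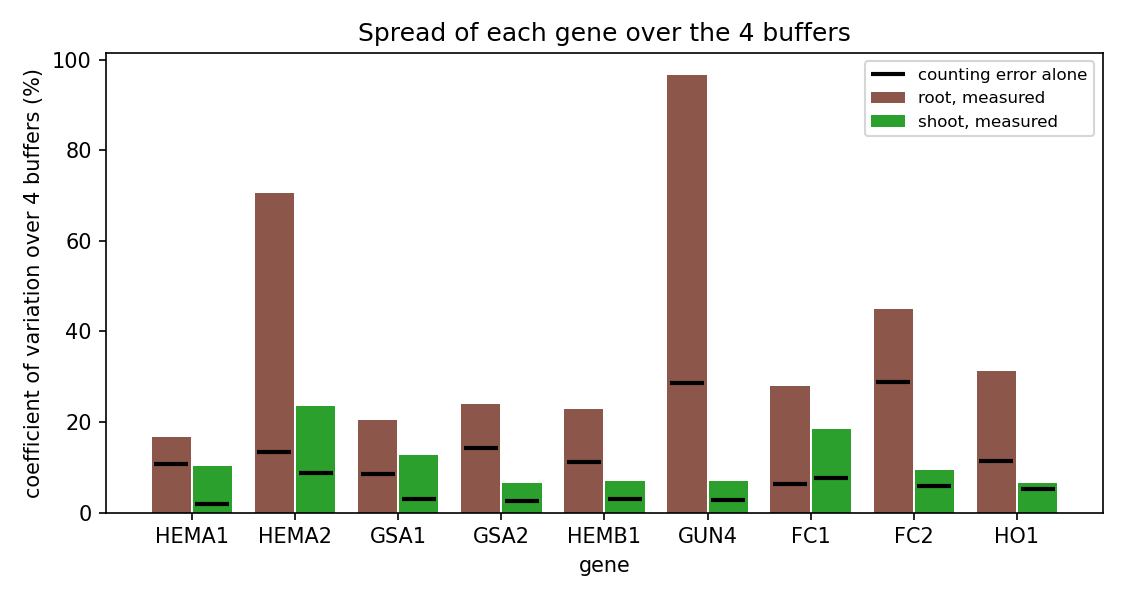
Coefficient of variation over the 4 buffers in percent (vertical axis, linear, from 0) of each of the 9 genes in root and shoot, with a black dash for the part that counting error alone would give. The root bar is the taller for every gene, and the GUN4 and HEMA2 bars in root stand highest, at 96.6% and 70.6%.

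The spread over buffers was larger in root for each of the 9 genes. In shoot the coefficient of variation ran from 6.59% for HO1 to 23.4% for HEMA2, and in root from 16.6% for HEMA1 to 96.6% for GUN4. Counting error alone would give 28.6% for GUN4 in root and 13.4% for HEMA2, so their spread exceeded it, as did that of the other 7 genes. HO1 in shoot came closest, with 6.59% measured and 5.21% from counting. The highest HEMA2 value in root was 4.58 times the lowest, against 1.69 times in shoot, and for HEMA1 the ratios were 1.45 and 1.26. Depth, buffer and library cannot be told apart as sources of this spread, since each buffer has 1 library per tissue.

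For 3 of the genes the tested genes with the most similar profile were found by the Euclidean distance over the 8 libraries of log2 CPM after each gene's mean was subtracted. This is a description of profiles, and it follows mainly the root to shoot difference. Closest to HEMA1 were AT3G54210 (distance 0.42), CPN60B (AT1G55490), a chaperonin subunit of plastids, at 0.46, and AT2G40520 at 0.47. AT2G40520 had no count in root, so its distance depends on the prior count of 2. Closest to FC1 were AT4G20300 at 0.38, AT3G11800 at 0.49 and AT5G61450 at 0.51, with log2 fold changes of 1.25, 1.07 and 1.34. Closest to HEMA2 were SCL30A (AT3G13570) at 0.55, AT1G22660 at 0.58 and DRB2 (AT2G28380) at 0.69.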

How the data were processed

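Ribosome footprints were counted in 4 root and 4 shoot libraries. The table that the authors deposited holds unnormalized counts of footprints in coding sequence for each gene and library. The submitters' processing notes list Bowtie2, STAR 2.5.1b and TAIR10 but not what each was used for. How counts were made, and where reads with several matches went, is not given in the sources used here. The 9 genes and all gene lists were chosen with earlier results of these data known. Symbols came from a RefSeq table of TAIR10.1, used for names only. No coding lengths or sequences were used here.

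Counts were tested in R 4.3.3 with edgeR 4.0.16: genes were kept by filterByExpr on the tissues (at least 10 counts, total at least 15), scaled with TMM factors and tested by quasi-likelihood, the model holding a tissue and a buffer term and thus 3 residual degrees of freedom. The interaction used numeric MgCl2 and Tris. P-values were adjusted by Benjamini-Hochberg over 15664 genes. Standard errors are the absolute log2 fold change divided by the square root of F. CPM uses the total over tested genes (99.0% to 99.5% of all counts) and the TMM factor. Counting error was taken as Poisson. Dropping root or shoot of the same buffer is nearly the same check, because the library that stays is fitted by its own buffer term. Alternatives were library totals alone, RLE factors, DESeq2 1.42.0, no filter, no buffer term and leaving out each library. The edgeR fit was tested on simulated counts. Ratios and sums of copies were compared by exact permutation in scipy 1.17.1, over all 8 libraries and with no buffer block. By rule the text names the 9 genes, every tested gene of the other pathway lists and the 2 of the magnesium branch with the most counts. PORA, CHLD, DVR, FIL and the copies that missed the filter were named after their values were seen.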

Additional observations from a re-analysis of the deposited data

Results flagged for a closer look

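A single library far from the other 3 of its tissue was looked for in 76 groups of 4 values, those of the 38 tested pathway genes in each tissue. For normally distributed values chance alone gives such a value in about 1 of 20 groups, and 5 were found. Among the 9 early and heme genes it was GSA2 in shoot, where shoot C stood at 517 CPM. Among the other genes, PPOX1 stood at 89.8 CPM in root D, and HY2 at 1.01 CPM in root A where the other root libraries had no count. SIRB stood at 0 CPM in root A, and DVR, a divinyl reductase of the magnesium branch, at 5.81 CPM in root A. HY2, SIRB and DVR had few or no counts in the root libraries, so the rate of 1 of 20 need not hold there.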

How the results depend on the processing

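The 7 lower and 1 higher of the 9 genes kept direction and call in all 13 alternatives, with log2 fold changes from -6.56 to -5.42 for GUN4 and from 1.12 to 1.86 for FC1. HEMA2 ranged from -1.22 to -0.24 (adjusted p 0.0149 to 0.631) and was called lower without either library of buffer C. With library totals alone, 4767 genes were higher in root (2781 with TMM factors) and 2687 lower, the median over all genes moved from -0.12 to 0.38, UPM1 was at 0.17, COX15 at 0.48, and the FC1 and FC2 sum at 0.47 in place of -0.02. COX15 ran from -0.36 to 0.18 and HEMA3 from -0.55 to 0.75 when a library was left out, neither called. Genes called for any buffer numbered 9, or 14 with library totals alone, 24 by DESeq2, 23 without the filter and 0 to 13 with a library left out. For buffer D minus B the 7 calls became 2 with RLE factors, 16 by DESeq2, 15 without the filter and 0 to 17 with a library left out. The interaction had 2 calls without the filter and 0 to 7 with a library left out. None of the 9 genes was among these calls. Without the filter, and without root C, 1 of the other early and middle genes, HEMB2, entered the test and was called higher in root, and without the filter HEMF2 entered and was called lower. The cause of these moves was not tested.

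Without the replicate block, that is with no buffer term, 3791 genes were lower and 3228 higher in root, COX15 was at 0.024, and the calls of the 9 genes did not change. Libraries of the same buffer did not deviate together (correlations over genes from -0.00417 to 0.02). The FC1 to FC2, GSA1 to GSA2 and HEMA1 to HEMA2 ratios ranged from 5.08 to 5.64, from 1.89 to 2.27 and from -3.89 to -3.09 without 1 library, where 3 against 4 cannot pass a two-sided permutation test. An order of the 9 genes by coding length was not run. Low root counts of GUN4, FC2, HEMD and HY2 limit their precision.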
